A study of Mus musculus with 9 samples.

Results

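The ISG15 conjugation machinery was followed in mouse kidney through its 5 genes: Isg15, Uba7, Ube2l6, Herc6 and Usp18. These were chosen by symbol for their textbook roles, with earlier results of these data known, and matched by Ensembl identifier. They are 5 of 54532 listed genes, and all 5 were among the 16646 genes with enough reads to test. ISG15 is a small ubiquitin-like protein that interferon switches on and that cells attach to other proteins, in a chain of reactions that mirrors ubiquitination. The E1 enzyme UBA7 activates it, the E2 enzyme UBE2L6 (also called UBCH8) carries it, the E3 ligase HERC6 transfers it in mouse, and the protease USP18 removes it. USP18 also binds the type I interferon receptor and damps its signalling, and free ISG15 is secreted and acts on leukocytes, so the system belongs to both the antiviral response and its control.

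Total RNA was taken from whole kidneys of 3 groups of C57BL/6J mice, with 3 libraries each: wild type, Trex1-/- given PBS, and Trex1-/- given SN-011. TREX1 is the exonuclease that clears DNA from the cytosol, where it would otherwise be sensed by cGAS and STING, and SN-011 is a small molecule that blocks STING. By the study's methods the Trex1-/- mice came from intercrosses of Trex1+/- animals, were 1 month old at the start and received SN-011 at 10 mg/kg or its vehicle intraperitoneally every day for 2 weeks. The wild-type mice were bought in rather than bred with them, and only a range of ages at purchase is given for them. Whether each library is a separate animal is not stated, so the p-values measure the spread between these libraries. Libraries held 16118813 to 21928965 counts. Kidney markers such as Umod and Slc34a1 were abundant in each group, at a summed 16000 to 19500 CPM (counts scaled to library size) over 9 genes. Trex1 itself had 0 counts in every library of the 3 groups, and its exons lie inside those of Atrip, so the counts do not check the genotype. Reads of Y-linked genes were present in wild-type replicate 3, in all 3 PBS libraries and in SN-011 replicate 2, at 153 to 188 CPM, and the other 4 libraries carried Xist instead, at 434 to 503 CPM. Libraries with and without Y-linked reads were thus spread unevenly over the groups, and the members are also given with this difference as a term in the fit (the Y-linked term).

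Isg15 lies at GRCm38 chr4:156199424-156200818 on the minus strand, with 756 exonic bases in 2 blocks, and is the shortest of the 5. Uba7 lies at chr9:107975505-107984060 (plus strand, 14 exon blocks, 6692 bases) and Ube2l6 at chr2:84798828-84810335 (plus strand, 5 blocks, 1996 bases). Herc6, the longest, lies at chr6:57581000-57664632 (plus strand, 21 blocks, 9292 bases), and Usp18 lies on the same chromosome at chr6:121245906-121270917 (plus strand, 11 blocks, 2790 bases). Herc6 shares 13.66% of its exonic bases with the same-strand transcript Gm45193, Uba7 shares 3.48% with Gm20661, and Usp18 shares 4.44% with Gm44148 on the opposite strand. The 3 partners held at most 10 counts in any library, but reads from the shared bases may have been dropped in counting (for Usp18, if strand was not used), so the levels of these members may be understated.

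The sequence before the start of each gene is shown because interferon acts on such genes through a short repeat of GAAA, the interferon-stimulated response element, which the factor ISGF3 binds. RefSeq (GRCm38.p6) gave a promoter for 4 of the 5 members, and Usp18 had none in the table. Capitals mark letters that match either of 2 patterns on either strand. The full pattern is GAAA, any 2 bases and GAAA again, and the shorter one, which lies within it, lacks the leading G. For Isg15, Ube2l6 and Herc6 the 120 bases before the RefSeq start are given, and for Uba7 the 30 bases around its match. The coordinates are chr4:156200819-156200938 (minus strand) for Isg15, chr9:107975530-107975559 (plus) for Uba7, chr2:84798708-84798827 (plus) for Ube2l6 and chr6:57580872-57580991 (plus) for Herc6.
Isg15: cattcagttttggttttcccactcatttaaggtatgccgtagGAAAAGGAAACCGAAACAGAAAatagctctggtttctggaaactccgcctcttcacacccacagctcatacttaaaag
Uba7: ctcagtctagTTTCACTTTtggtttcctga
Ube2l6: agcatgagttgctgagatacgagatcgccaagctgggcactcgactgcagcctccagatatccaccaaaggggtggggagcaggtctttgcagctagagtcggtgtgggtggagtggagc
Herc6: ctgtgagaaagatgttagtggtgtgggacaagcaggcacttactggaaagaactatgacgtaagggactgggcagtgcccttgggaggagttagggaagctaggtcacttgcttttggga

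Isg15 had 3 overlapping matches to the full pattern from -78 to -57 relative to its start. Uba7 had 1 match to the shorter pattern, on the opposite strand at -27 to -19, and in the GENCODE annotation these bases already lie inside the gene, which begins 62 bases before the RefSeq start. No match to either pattern was found for Ube2l6 or Herc6 in the window from 250 bases before to 50 after the start, and none of the 4 held TTCNNNGAA, the gamma-activated site. Of 32851 mouse promoters of that length, 3.44% held the full pattern, 10.6% held the shorter one and 8.3% held TTCNNNGAA. The shorter pattern was searched after the sequences had been seen, and a match describes letters, not a bound site.

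The opening question was what loss of TREX1 does to these transcripts, set by the PBS group against wild type. The wild-type mice came from another source, and no injection is stated for them. Genotype, source, any age difference and 2 weeks of vehicle thus cannot be told apart here. Isg15, Usp18, Herc6 and Uba7 rose in Trex1-/- kidneys, from 9.43-fold for the modifier to 1.91-fold for the E1 enzyme. Ube2l6 was 2.0-fold higher on average, and that difference did not pass the test. So 4 of 5 members were called higher, where 1.44% of all tested genes were. For all 5 the lowest PBS library lay above the highest wild-type library, as it did for 13.1% of tested genes. The median log2 fold change of the 5 was 1.94, against 0.0028 over all tested genes.

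**Figure D1:**
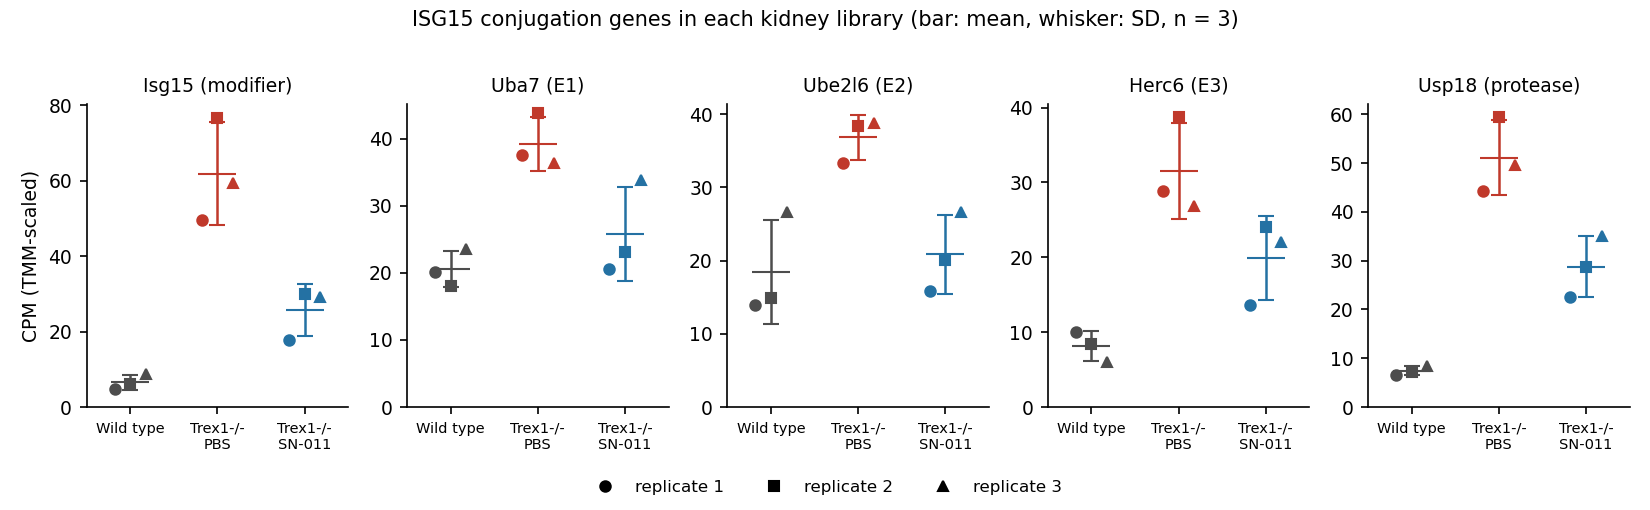
CPM (vertical axis, from 0, with a scale of its own in each panel) of the 5 members in each library of wild type, Trex1-/- with PBS and Trex1-/- with SN-011. Symbols are replicates, bars the mean and whiskers the SD (n = 3). In every panel the 3 PBS libraries sit above all others, and the SN-011 libraries clear wild type for Isg15, Herc6 and Usp18 but overlap it for Uba7 and Ube2l6.

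Isg15, the modifier itself, stood at 4.9, 6.05 and 8.85 CPM in the wild-type replicates and at 49.6, 76.7 and 59.4 CPM in the PBS replicates. Even the lowest PBS library was far above the highest of wild type. The log2 fold change was 3.24 (SE 0.272, adjusted p 2.12e-04, edgeR's quasi-likelihood test with Benjamini-Hochberg adjustment, n = 3 per group). The reads behind it numbered 104 to 153 in wild type and 815 to 1313 with PBS.

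Usp18, the protease that reverses the modification, stood at 6.6, 7.27 and 8.5 CPM in wild type and at 44.2, 59.4 and 49.7 CPM with PBS. Its wild-type libraries were close together (7.46 ± 0.965, SD, n = 3), and it had the smallest adjusted p of the 5. The log2 fold change was 2.78 (SE 0.183, edgeR adjusted p 7.59e-05). The modifier and the protease that removes it were thus both called higher.

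Of the 3 enzymes that attach ISG15, Herc6, the ligase, changed most. It stood at 10, 8.45 and 6.02 CPM in wild type and at 28.8, 38.8 and 26.9 CPM with PBS, a log2 fold change of 1.94 (SE 0.249, edgeR adjusted p 0.00238). Uba7, the activating enzyme, stood at 20.1, 18.1 and 23.5 CPM in wild type and at 37.5, 43.8 and 36.3 CPM with PBS. Its log2 fold change was 0.93 (SE 0.179, edgeR adjusted p 0.0265). Both enzymes had groups that did not overlap, although Uba7 rose by less than the other called members.

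Ube2l6, the conjugating enzyme, stood at 13.9, 14.9 and 26.6 CPM in wild type and at 33.3, 38.4 and 38.8 CPM with PBS. Its log2 fold change of 1.0 (SE 0.248) was similar to that of Uba7, but wild-type replicate 3 lay well above the other two and the edgeR adjusted p was 0.0779. Without that library the log2 fold change was 1.35 (edgeR adjusted p 0.00634). With the Y-linked term it was 0.76 (edgeR adjusted p 0.264). Ube2l6 was also called by edgeR's exact test (adjusted p 0.00724), by DESeq2's Wald test (adjusted p 0.0031), with the replicate block (edgeR adjusted p 0.013) and with the 6 libraries of the comparison alone (edgeR adjusted p 0.0373).

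The call on Uba7 was the least stable of the 4. Its edgeR adjusted p was 0.091 with the Y-linked term and between 0.0694 and 0.137 when wild-type replicate 1 or 2, or any 1 of the PBS replicates, was left out, with log2 fold changes of 0.84 to 0.98. Isg15, Usp18 and Herc6 remained called in each of the 16 alternatives run, and with the Y-linked term their log2 fold changes were 2.93, 2.70 and 1.94. Among libraries that carried Y-linked reads, Isg15 stood at 8.85 CPM in the 1 wild-type library and at 49.6 to 76.7 CPM in the 3 PBS libraries. No PBS library carried Xist in place of Y-linked reads, so the comparison could not be made in such libraries.

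Uba7 also lies near the targeted locus, 1.07 Mb from Trex1 on chromosome 9. Of 83 tested genes within 1.5 Mb of Uba7, 2 were called higher with PBS than in wild type, Slc38a3 and Atrip, and 3 were called lower, Mapkapk3, Cish and 6430571L13Rik. That is 6.02% of the neighbourhood, against 1.88% of all tested genes called in either direction. At 1.54 Mb from Uba7, the ribosomal protein gene Rpl29 fell to 5.02 CPM with PBS, from 121 CPM in wild type (log2 fold change -4.59, edgeR adjusted p 8.09e-06). The part of chromosome 9 in the value of Uba7 was not tested.

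The enzyme genes of the ISG15 system were next set beside genes with the like role for ubiquitin, none of which was called. The counterparts compared were the ubiquitin E1 gene Uba1, the E2 gene Ube2l3, the ligase gene Herc4 and the deubiquitinase gene Usp14. Their log2 fold changes with PBS against wild type ran from -0.031 for Uba1 to 0.21 for Herc4, with edgeR adjusted p from 0.651 to 0.9. The log2 ratio of member to counterpart was higher with PBS by 2.61 for Usp18, 1.73 for Herc6, and 0.96 each for Uba7 and Ube2l6. In each pair the groups did not overlap, and the exact two-sided permutation p was 0.1, the smallest that 3 libraries against 3 allow (0.111 after Benjamini-Hochberg adjustment over the 10 such tests run). The members alone already had groups that did not overlap, and no share over other gene pairs was worked out.

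**Figure D2:**
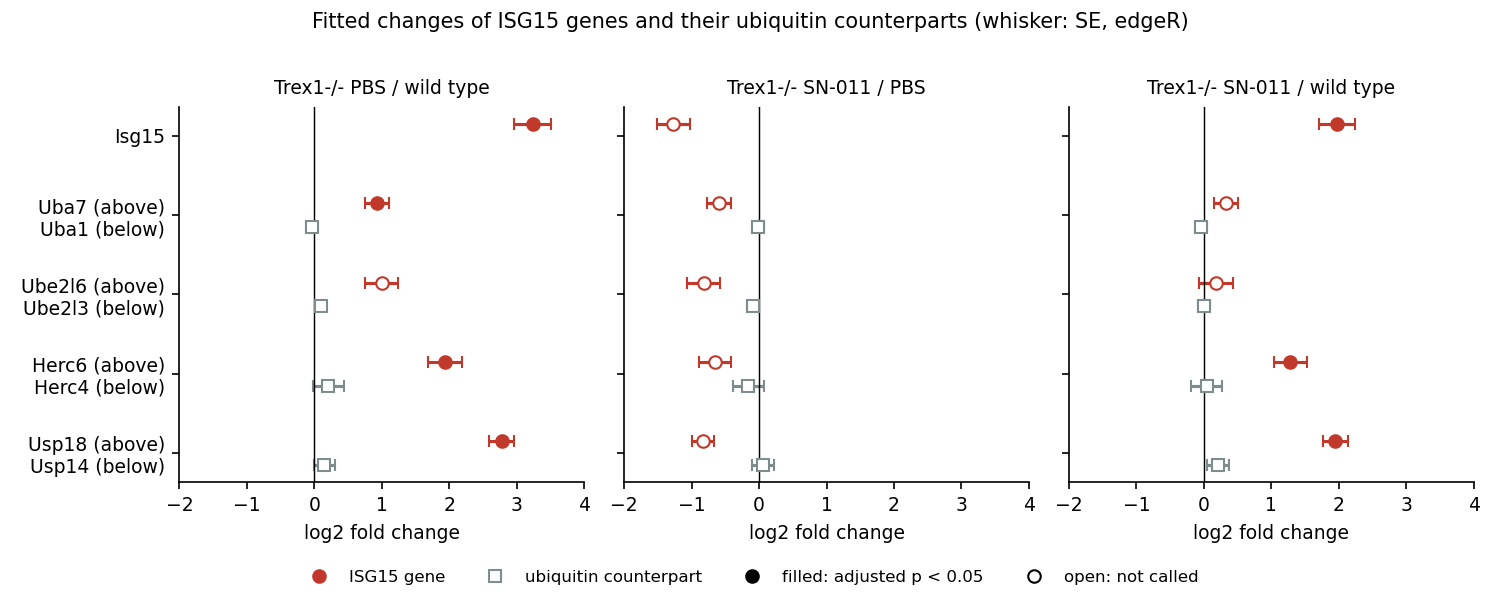
Log2 fold changes (horizontal axis) with SE whiskers from edgeR for each ISG15 gene (circles) and the ubiquitin counterparts of its 4 enzymes (squares) in the 3 comparisons. Filled symbols have an adjusted p under 0.05. With PBS against wild type 4 circles are filled, with SN-011 against PBS all 5 circles lie below 0 and are open, and no square is filled in any comparison.

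The other genes of each enzyme family were then followed, to be read against the 1.88% of all tested genes that were called. None of 9 other E1 genes was called, with log2 fold changes of -0.09 to 0.25 in Trex1-/- with PBS against wild type. None of 32 other tested E2 genes was called (-0.13 to 0.35), nor any of 4 other HERC ligase genes (-0.03 to 0.21), so Uba7, Ube2l6 and Herc6 each had the highest value of their family. Among 44 other tested USP genes the range was -0.36 to 1.96 and none was called, the upper end being Usp29 (edgeR adjusted p 0.256), and Usp18 lay above it. Of 14 other ubiquitin-like modifiers, Ubd was called and had a higher log2 fold change than Isg15.

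Ubd encodes FAT10, a modifier that marks proteins for the proteasome and is known as a target of interferon gamma and tumour necrosis factor. It stood at 0.0943, 0.452 and 0.463 CPM in wild type, at 3.35, 4.26 and 6.65 CPM with PBS and at 1.3, 3.88 and 2.49 CPM with SN-011. The log2 fold change with PBS against wild type was 3.81 (SE 0.549, edgeR adjusted p 0.0051). Few reads stood behind its wild-type level, whereas Isg15 had 104 or more in each library.

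**Figure D3:**
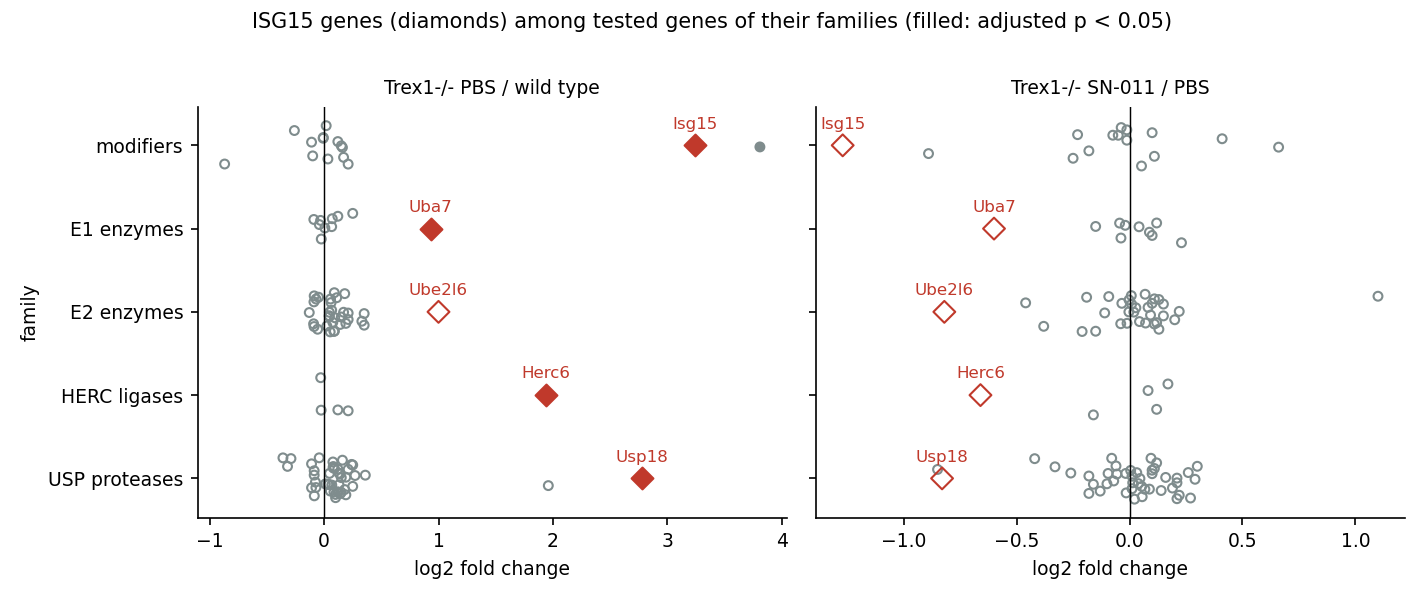
Log2 fold changes (horizontal axis) of the tested genes of 5 families, with each ISG15 gene as a diamond and other genes as circles, for Trex1-/- with PBS against wild type (left) and SN-011 against PBS (right). Filled symbols have an adjusted p under 0.05, and vertical scatter within a family has no meaning. On the left the 4 filled diamonds and the open one of Ube2l6 stand to the right of nearly all circles, and on the right no symbol is filled.

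Per kilobase of exon, which allows a rough comparison of genes of unlike length, the order of the 5 differed between wild type and Trex1-/-. The length used is that of all annotated exons of a gene merged. Transcripts present in kidney may be shorter, so the order between genes depends on this choice. In wild-type kidneys Ube2l6 (9.24 ± 3.53 RPKM, which is CPM per kilobase, SD, n = 3) and Isg15 (8.73 ± 2.69) overlapped at the top, Uba7 (3.08 ± 0.411) and Usp18 (2.67 ± 0.346) overlapped below them, and Herc6 was lowest (0.879 ± 0.218). With PBS, Isg15 stood clear of all others at 81.9 ± 18.1 RPKM, followed by Ube2l6 (18.4 ± 1.55) and Usp18 (18.3 ± 2.75), which overlapped, then Uba7 (5.86 ± 0.606) and Herc6 (3.39 ± 0.691). With SN-011 Isg15 was again clear of the rest and Ube2l6 and Usp18 again overlapped, with Isg15 at 34.0 ± 9.07, Ube2l6 at 10.4 ± 2.71, Usp18 at 10.3 ± 2.24, Uba7 at 3.86 ± 1.05 and Herc6 at 2.15 ± 0.601 RPKM. Usp18 thus stood below Uba7 in each wild-type library and above it in each Trex1-/- library.

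The ratio of modifier to enzyme transcripts moved accordingly. For each Ube2l6 transcript unit there were 0.88 to 1.07 of Isg15 per length in wild type, 3.94 to 5.27 with PBS and 2.9 to 3.95 with SN-011. Relative to Uba7, the ranges were 2.16 to 3.33, 11.7 to 15.5 and 7.65 to 11.5. Relative to Usp18 they were 2.74 to 3.84, 4.14 to 4.76 and 2.92 to 3.85, so the SN-011 range lay close to that of wild type. Relative to Herc6 they were 6.0 to 18.1, 21.2 to 27.2 and 15.3 to 16.2. These ratios are descriptions and were not tested.

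**Figure D4:**
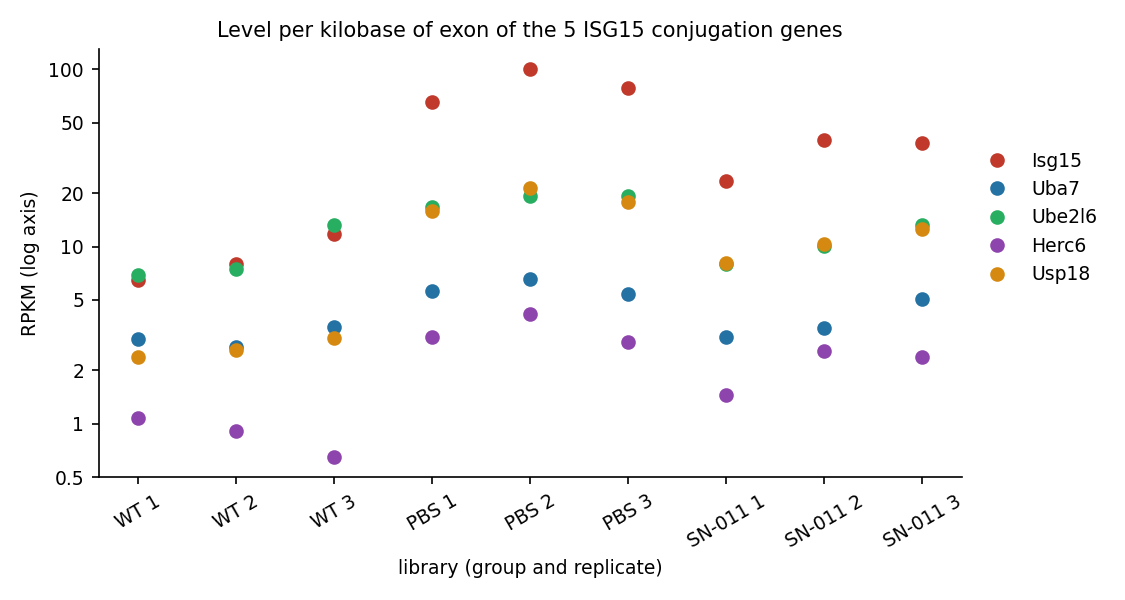
CPM divided by exon length in kilobases (RPKM, log axis) of the 5 members in each of the 9 libraries, 1 point per gene and library. Isg15 lies level with Ube2l6 in wild type and above all other members with PBS and SN-011, while Herc6 is lowest in every library.

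What blocking STING does to the machinery was read from the Trex1-/- mice alone, as SN-011 against PBS. All 5 members were lower in each SN-011 library than in any PBS library, as 8.41% of tested genes were, but none passed the test after adjustment, and neither did any other gene (0% called). At an unadjusted p under 0.05 all 5 members had a difference, as did 11.4% of tested genes (1905 genes). DESeq2's Wald test called 2 of the 5, Isg15 and Usp18, and 183 genes in all, and edgeR's exact test called the same 2 members and 127 genes. The median log2 fold change of the 5 was -0.82, against -0.0053 over all tested genes.

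Isg15 stood at 17.8, 30.1 and 29.2 CPM with SN-011, against 49.6 to 76.7 CPM with PBS. The log2 fold change was -1.27 (SE 0.247, edgeR adjusted p 0.203), a 2.41-fold lower level, and it had the largest difference of the 5. Usp18 stood at 22.5, 28.8 and 35.0 CPM (log2 fold change -0.83, SE 0.168, edgeR adjusted p 0.21). When replicate 2 of SN-011 was left out, which is the library of that group with Y-linked reads, both genes were called, with log2 fold changes of -1.40 (edgeR adjusted p 0.0266) and -0.83 (edgeR adjusted p 0.0464). In that fit 519 genes were called in all. The SN-011 libraries left in it carried Xist, while all PBS libraries carried Y-linked reads. Treatment and that difference therefore cannot be told apart in it.

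Of the attaching enzymes, Ube2l6 stood at 15.9, 20.1 and 26.6 CPM with SN-011 (log2 fold change -0.82, SE 0.247, edgeR adjusted p 0.281). Herc6 stood at 13.6, 24.1 and 22.1 CPM (-0.66, SE 0.237, edgeR adjusted p 0.338), and Uba7 at 20.6, 23.1 and 33.8 CPM (-0.60, SE 0.178, edgeR adjusted p 0.279). SN-011 replicate 1 was the lowest of its group for all 5 members. For Uba7, replicate 3 lay just under the lowest PBS library, at 36.3 CPM.

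With the Y-linked term the log2 fold changes were -0.95 for Isg15, -0.74 for Usp18, -0.66 for Herc6, -0.58 for Uba7 and -0.52 for Ube2l6, and none was called. In the 1 SN-011 library that carried Y-linked reads, as all PBS libraries did, all 5 members were below every PBS library, with Isg15 at 30.1 CPM and Usp18 at 28.8 CPM. For the enzymes against their ubiquitin counterparts the log2 ratio differed between SN-011 and PBS by -0.88 for Usp18, -0.75 for Ube2l6 and -0.61 for Uba7. Each had an exact permutation p of 0.1, the smallest possible, and no overlap, as was already so for the members alone. For Herc6 against Herc4 the difference in log2 ratio was -0.45 (exact permutation p = 0.3) and the groups overlapped. Herc4 itself stood at 56.6 to 82.0 CPM in the 5 libraries with Y-linked reads and at 42.1 to 51.1 CPM in the other 4.

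The third comparison, SN-011 against wild type, shows which members still stood above the wild-type level. Isg15, Usp18 and Herc6 were called higher, 3 of 5, where 0.823% of tested genes were, and their groups did not overlap, as for 11.8% of tested genes. Isg15 was 3.91-fold higher (log2 fold change 1.97, SE 0.265, edgeR adjusted p 0.00908), Usp18 3.86-fold (1.95, SE 0.18, edgeR adjusted p 0.00206) and Herc6 2.43-fold (1.28, SE 0.248, edgeR adjusted p 0.0398). Uba7 (0.33, SE 0.179, edgeR adjusted p 0.368) and Ube2l6 (0.18, SE 0.249, edgeR adjusted p 0.75) overlapped wild type. Without SN-011 replicate 3 the log2 fold changes of these 2 were 0.089 and -0.029.

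Within the libraries that carried Xist, Isg15 stood at 4.9 and 6.05 CPM in wild type and at 17.8 and 29.2 CPM with SN-011, and Usp18 at 6.6 and 7.27 against 22.5 and 35.0 CPM. For Herc6 these values were 10 and 8.45 against 13.6 and 22.1 CPM, so the groups were also apart there for all 3. The call on Herc6 was lost in 9 of 16 alternatives, with the 6 libraries of the comparison alone and without any 1 library other than SN-011 replicate 1 (edgeR adjusted p 0.0532 to 0.131), and that on Isg15 without wild-type replicate 1 (edgeR adjusted p 0.0533) or 2 (0.0541).

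Measured as a share of the log2 rise from wild type to PBS, 70.2% ± 11.6 was left with SN-011 for Usp18 (SD over 3 SN-011 libraries), 66.0% ± 22.8 for Herc6 and 60.8% ± 13.1 for Isg15. For Uba7 35.2% ± 40.0 and for Ube2l6 18.2% ± 35.2 was left. Single SN-011 libraries ran from 0.818% to 77.4% for Uba7 and from -14.4% to 55.9% for Ube2l6, against 57.6% to 80.6% for Usp18, and differences in this share between members were not tested. Without SN-011 replicate 3 the shares of Uba7 and Ube2l6 were 9.56% and -2.93%. On the CPM scale the shares were 48.8% for Usp18, 50.5% for Herc6, 34.5% for Isg15, 28.1% for Uba7 and 13.2% for Ube2l6. The 3 comparisons share libraries, so these shares are not independent of the fold changes above.

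Genes that assist ISG15 outside the core chain were followed as a list of 18, all tested. With PBS against wild type 4 were called higher, against 1.44% of all tested genes: Trim25, Itgb2, Itgal and Lrrc25. The median of the list was 0.067 on the log2 scale, so most of it did not move with the core genes. Trim25, a ligase for both ubiquitin and ISG15 that acts on the RNA sensor RIG-I, stood at 127, 120 and 128 CPM in wild type and at 192, 218 and 187 CPM with PBS (log2 fold change 0.67, SE 0.0939, edgeR adjusted p 0.00414). With SN-011 it stood at 146, 166 and 167 CPM, between the other groups and apart from both. Of all tested genes, 8.41% were apart and lower than PBS, and 11.8% apart and higher than wild type. Trim25 was not called against PBS (edgeR adjusted p 0.278) or wild type (edgeR adjusted p 0.0933). None of the 18 was called with SN-011 in either comparison.

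Itgal and Itgb2 encode the 2 chains of LFA-1, the leukocyte integrin through which secreted ISG15 acts. Itgal stood at 3.02, 4.52 and 4.57 CPM in wild type, at 9.13, 10.6 and 8.45 CPM with PBS and at 4.65, 7.01 and 5.7 CPM with SN-011. Itgb2 stood at 5.38, 5.42 and 7.17 CPM, at 14.1, 12.9 and 13.9 CPM and at 6.86, 11.7 and 9.14 CPM. Both rose with PBS against wild type (log2 fold changes 1.22 and 1.19, edgeR adjusted p 0.0161 and 0.0125). Lrrc25, a leucine-rich repeat protein that binds ISG15 on RIG-I, rose by 1.35 (edgeR adjusted p 0.038). With the Y-linked term 2 of the 18 genes were called, and 198 of the 16646 tested.

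LFA-1 is made by leukocytes, and summed pan-leukocyte, macrophage and T cell markers were higher in every PBS library than in any wild-type library. The sum of 6 pan-leukocyte markers was 75.8 to 99.0 CPM in wild-type libraries, 135 to 158 CPM in PBS libraries and 89.0 to 134 CPM in SN-011 libraries. Of these, Cd52 and Coro1a were called higher with PBS, and Ptprc, the gene that defines leukocytes, was not. The sum of 8 macrophage markers was 173 to 207, 282 to 317 and 167 to 260 CPM, with C1qa, C1qb and C1qc called higher, and that of 6 T cell markers was 5.23 to 9.30, 15.1 to 24.2 and 8.39 to 17.5 CPM, with Cd3g and Cd4 called higher. With the Y-linked term none of these 20 markers was called in that comparison. With SN-011 against PBS none was called in the main fit. The median log2 fold changes of the 3 lists were 0.83, 0.88 and 1.54, against 3.24 for Isg15 and 0.93 for Uba7. In whole kidney, more cells of a type and more RNA per cell cannot be told apart, and the part of leukocytes in the values of the members was not tested.

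The other marker lists were small in reads or moved otherwise. The 4 B cell markers summed to at most 3.52 CPM and the 4 neutrophil markers to at most 8.61 CPM in any library, with none called. The median log2 fold change of tested neutrophil markers was 1.71 with PBS against wild type and 0.034 with SN-011 against PBS. For tested B cell markers these medians were -0.35 and -0.40. Of 3 plasma cell markers, Jchain was called higher in both Trex1-/- groups than in wild type. With SN-011 against PBS its log2 fold change was 0.25 and it was not called. The 4 fat markers summed to 150 to 375 CPM in wild-type libraries, 102 to 194 CPM in PBS libraries and 111 to 155 CPM in SN-011 libraries, with none called, and of 9 kidney markers only Slc5a2 was called, lower with PBS (log2 fold change -0.71, edgeR adjusted p 0.0163).

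Upstream of the machinery, 5 of 13 genes of the interferon receptor, its kinases and its factors were called higher with PBS against wild type (1.44% of all tested genes were), among them Irf7, Stat2, Irf9 and Irf1. Stat2 and Irf9 encode parts of ISGF3, and their log2 fold changes were 1.44 and 0.86 (edgeR adjusted p 3.34e-04 and 7.84e-04). Irf7, the factor that amplifies type I interferon, rose by 3.08 (edgeR adjusted p 2.37e-04), from 20.8, 24.1 and 37.4 CPM to 202, 272 and 222 CPM. The kinase gene Jak1 did not pass the test (0.12). With SN-011 against wild type 4 of the 13 were still called (0.823% of all tested genes were higher there), and with SN-011 against PBS none was. With the Y-linked term 4 were called with PBS and 5 with SN-011, each against wild type.

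Downstream, 9 of 16 genes whose proteins are reported to carry ISG15 were called higher with PBS against wild type, against 1.44% of all tested genes, with a median of 0.99 on the log2 scale. Ifit1 (3.13), Mx2 (2.96), Ifit3 (2.36) and the RNA sensor genes Ifih1 (1.63) and Ddx58 (1.24) were among them, as was Parp12 (1.08). The abundant target Ppp2ca, a phosphatase subunit, had a value of 0.046 and was not called. With SN-011 against wild type 8 of the 16 were called, against 0.823%, and with SN-011 against PBS none was, with a median of -0.43. Many of these targets are themselves interferon-induced genes, and a transcript level says nothing of how much protein is modified.

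Across all 9 libraries the genes most like each member were found by the root mean square difference between log2 profiles, each centred on its wild-type mean, over 14836 genes with a mean of at least 1 CPM. For Isg15 these were Irf7 (0.107), Ifit1 (0.214) and Oas1g (0.231), and for Usp18 they were Oas1a (0.116), Oas1g (0.157) and Mx2 (0.175). For Herc6 they were Gbp2 (0.246), Trim30a (0.267) and Parp14 (0.281), a looser match. For Uba7 they were Trim12c (0.0972), Trafd1 (0.159) and Dck (0.16), and for Ube2l6 Dck (0.165), Fgr (0.195) and Gm11992 (0.201).

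Among the members themselves, Usp18 ranked 6 of 14836 for Isg15 (0.316), and Isg15 ranked 13 for Usp18. Uba7 ranked 5 for Ube2l6 and Ube2l6 ranked 18 for Uba7 (0.209). Other pairs were less alike. For Uba7, Isg15, Usp18 and Herc6 ranked 14695, 14570 and 12859, and for Ube2l6 they ranked 14670, 14532 and 12660. Ranks depend on the gene they start from, and for Isg15, Uba7 ranked 459 and Ube2l6 421. The member nearest to Herc6 was Usp18, at rank 160. No member was thus among the 3 nearest genes of another. The 3 libraries of a group share their condition, so these distances are descriptions and carry no p.

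Within groups the members did not always move together. Wild-type replicate 3, the wild-type library with Y-linked reads, was the highest of its group for Isg15, Uba7, Ube2l6 and Usp18 and the lowest for Herc6. PBS replicate 2 was the highest of its group for Isg15, Uba7, Herc6 and Usp18, and for Ube2l6 it lay just under replicate 3. The cause of these differences was not tested.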

How the data were processed

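Gene counts of 9 mouse kidney libraries (3 groups of 3) were deposited as whole numbers, 1 file per library. Per the labels and methods, the authors made polyA libraries, sequenced them in pairs, aligned reads to mm10 with HISAT2 and counted them per gene with featureCounts. The methods call the library preparation strand-specific. The strand setting used in counting and tool versions are not given in the sources used here. Of 54532 identifiers, 54495 matched GENCODE vM21. Genes with a count of at least 10 in enough libraries and 15 in all (edgeR filterByExpr) were kept, 16646 in number. All 9 libraries were scaled by TMM (factors 0.926 to 1.06) and fitted by edgeR 4.0.16's quasi-likelihood test in R 4.3.3, tested on simulated data first. p-values were adjusted over all tested genes by Benjamini-Hochberg at 0.05, two-sided. CPM and RPKM use TMM-scaled totals, and RPKM the summed exonic bases. Log2 ratios used a prior count of 2. Within groups, libraries differed by 7.76 to 76.0 times the counting variance, so no 2 were treated as the same library. Genes named are the 5 members, up to 6 called and the 2 most abundant genes of each list, the counterparts and the 3 nearest profiles, and Usp29, Slc38a3, Mapkapk3, Cish, 6430571L13Rik and Ptprc were named after their values were seen. Some genes these rules name are not reported here. E2 and USP genes were taken by symbol, leaving out Ube2cbp and Usp6nl, which encode other proteins. Members and lists were chosen with earlier results of these data known. Alternatives were DESeq2 1.42.0 (size factors, or its Wald test), no filter beyond 1 read, edgeR's exact test, the 6 libraries of a comparison alone, a replicate block, a Y-linked term and leaving out each library.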

Additional observations from a re-analysis of the deposited data

How the results depend on the processing

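For PBS against wild type the number of members called was 3 to 5 in all 16 alternatives (3 to 5 when each library was left out), whereas all genes called went from 313 to 707 with no filter, 726 with DESeq2's Wald test, 683 with edgeR's exact test, 751 with 6 libraries and 198 with the Y-linked term, and ran from 153 to 774 when each library was left out. For SN-011 against PBS, members called went from 0 to 3 with no filter, 2 with the Wald test and 2 with the exact test, and ran from 0 to 2 when each library was left out, and all genes went from 0 to 127, 183 and 127 under these 3 settings and ran from 0 to 519, the most without SN-011 replicate 2. For SN-011 against wild type, members called ran from 1 to 3 when each library was left out, with Usp18 alone without wild-type replicate 1 or 2, and all genes went from 213 to 607 with no filter, 806 with the Wald test, 601 with the exact test, 43 with 6 libraries and 656 with the Y-linked term, and ran from 38 to 376. The cause was not tested.

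Ube2l6 was called higher with PBS than in wild type under 7 alternatives. Its log2 fold change for SN-011 against wild type ran from -0.029 (without SN-011 replicate 3, a reversal) to 0.53 (without wild-type replicate 3), and its share left from -2.93% to 39.1% under the same 2. For Uba7 these ran from 0.089 to 0.47 and from 9.56% to 50.2%, lowest without SN-011 replicate 3. All other members kept their direction in all 3 comparisons.

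Correlations of deviations across genes between libraries of the same replicate number ran from -0.294 to 0.242 over the 3 pairs of groups, so the number was not taken to pair them. Between PBS and SN-011 alone they were 0.198, 0.242 and 0.0981, each above those of unlike numbers (-0.216 to 0.0914), a hint from the data that the labels do not state. With a replicate block, 312, 0 and 231 genes and 5, 0 and 3 members were called in the 3 comparisons, and for SN-011 against PBS the edgeR adjusted p of Isg15 went from 0.203 to 0.0619.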
